A study of Mus musculus with 4 samples.

Results

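The keratins *Krt5*, *Krt14*, *Krt17*, *Krt7*, *Krt8*, *Krt18* and *Krt19* were described in single cells of the mouse submandibular and sublingual glands. They were taken by symbol from the gene list of the deposited count matrix, which gave 7 of 32285 genes and 7 of the 49 genes whose symbol is *Krt* and a number. The study profiled these glands by droplet sequencing of transcript 3′ ends in single cells. The labels describe 4 samples from 2 wild-type female C57BL/6N mice aged 6 to 8 weeks, under physiological status and with no agent named. All cells came in 1 matrix with 1 barcode suffix and 0 repeated barcodes, so cells could not be assigned to a mouse, a gland or a sample, and no spread between animals was available. The matrix held 15707 cells and 125100595 unique molecular identifiers (UMIs), with a median of 2608 UMIs and 689 detected genes per cell.

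Keratins form the intermediate filaments of epithelial cells, and a filament needs a type I and a type II keratin in a pair. *Krt5* (type II) with *Krt14* and *Krt17* (type I) are known from basal and myoepithelial cells, which lie on the basement membrane. *Krt7* and *Krt8* (type II) with *Krt18* and *Krt19* (type I) are the simple keratins, known from cells that line a lumen.

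Cells were clustered with no keratin among the variable genes and named from marker lists that held no keratin. The 23 clusters gave 15 named classes, written with the ending "-like", and 4 clusters with 5903 cells (37.6%) stayed unnamed. The epithelial classes held 3178 acinar-like cells (serous, *Dcpp* and mucous), 3079 luminal duct-like cells (kallikrein, *Ascl3* and other), 171 basal duct-like cells and 57 myoepithelial-like cells. A further 3319 cells in 7 classes were non-epithelial. Median depth was 20719.5 UMIs in acinar-like cells, 2779 in luminal duct-like cells, 4445 in basal duct-like cells, 5035 in myoepithelial-like cells and 2054 in non-epithelial cells. Among the naming markers, *Acta2* had a UMI in 57 of 57 myoepithelial-like cells and in 7 of 171 basal duct-like cells. *Trp63* had a UMI in 28 and 42 of these cells, and *Oxtr* and *Aqp3* were at 0 in both classes. The basal duct-like cluster counted 6 of 12 basal markers and also 8 of 13 general luminal markers, and the myoepithelial-like cluster 7 of 11 of its own and 7 of 12 basal markers, so these names are not exclusive.

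A level below is the UMIs of a gene summed over a class per 10000 UMIs of that class, and brackets give the exact 95% Poisson interval. Shares of cells have exact 95% binomial intervals. All intervals cover counting error only. Since a class comes from the genes of the same cells, its levels are a description and not a test. The 7 keratins held 75196 UMIs, which was 93.2% of all keratin UMIs and 0.0601% of all UMIs.

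The basal keratins came first. *Krt14* stood at 10.5 [9.89 to 11.2] in basal duct-like cells and at 7.41 [6.53 to 8.39] in myoepithelial-like cells. Next was 0.177 [0.139 to 0.222] in other luminal duct-like cells. The intervals of these 3 classes did not overlap, so over all cells the order was basal, myoepithelial, other luminal. Of the 74 *Krt14* UMIs of other luminal duct-like cells, 49 lay in 84 cells that joined the myoepithelial cluster at a finer resolution, as given below. In cells under 4000 UMIs alone, a split chosen after the values were seen, *Krt14* was 15.4 [12.3 to 19.2] in myoepithelial-like and 12.1 [10.6 to 13.7] in basal duct-like cells, which overlapped. Below these came mucous acinar-like and other myeloid-like cells at 0.102 each (the latter 5 UMIs in 1 cell), kallikrein duct-like cells at 0.0811, endothelial-like cells at 0.0738, macrophage-like cells at 0.0499, T-like cells at 0.0466 and NK or ILC-like cells at 0.0412. The lowest *Krt14* levels were 0.0199 in fibroblast-like, 0.0114 in *Dcpp* acinar-like, 0.00968 in *Ascl3* duct-like and 0.00584 in serous acinar-like cells, with 0 UMIs in pericyte or smooth muscle-like cells (upper bound 0.193). From mucous acinar-like cells down, each class overlapped the next.

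*Krt5*, the type II partner of *Krt14*, reached 2.69 [2.38 to 3.02] in basal duct-like cells and 2.22 [1.74 to 2.78] in myoepithelial-like cells. These intervals overlapped, so no order between them could be read. Other luminal duct-like cells followed at 0.0718 [0.0485 to 0.103]. The other classes ran from 0.0299 in fibroblast-like, 0.0295 in endothelial-like, 0.0283 in kallikrein duct-like, 0.0247 in NK or ILC-like and 0.0213 in mucous acinar-like cells to 0.0136 in macrophage-like, 0.00323 in *Ascl3* duct-like, 0.00162 in *Dcpp* acinar-like and 0.00158 in serous acinar-like cells. Pericyte or smooth muscle-like, other myeloid-like and T-like cells had 0 *Krt5* UMIs (upper bounds 0.193, 0.0750 and 0.172). Other luminal duct-like cells did not overlap myoepithelial-like cells, and from them down every neighbour in the *Krt5* order overlapped the next.

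*Krt17*, a type I keratin, followed the same pattern, at 4.74 [4.33 to 5.18] in basal duct-like cells and 3.60 [2.99 to 4.30] in myoepithelial-like cells, without overlap. In cells under 4000 UMIs alone it was 7.13 [6.01 to 8.41] and 6.67 [4.64 to 9.27], which overlapped. Fibroblast-like cells came next at 0.149, but 13 of their 15 *Krt17* UMIs lay in a single cell. Other myeloid-like cells had 0.142 (7 UMIs in 1 cell), other luminal duct-like cells 0.0622, kallikrein duct-like cells 0.0509, mucous acinar-like cells 0.0473, *Ascl3* duct-like cells 0.0323, macrophage-like cells 0.0317, endothelial-like cells 0.0147, serous acinar-like cells 0.00252 and *Dcpp* acinar-like cells 0.00162. Pericyte or smooth muscle-like, NK or ILC-like and T-like cells had 0 *Krt17* UMIs (upper bounds 0.193, 0.0152 and 0.172). From fibroblast-like cells down, each class overlapped the next, and all 3 basal keratins set the leading pair of classes apart from the rest.

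**Figure D1:**
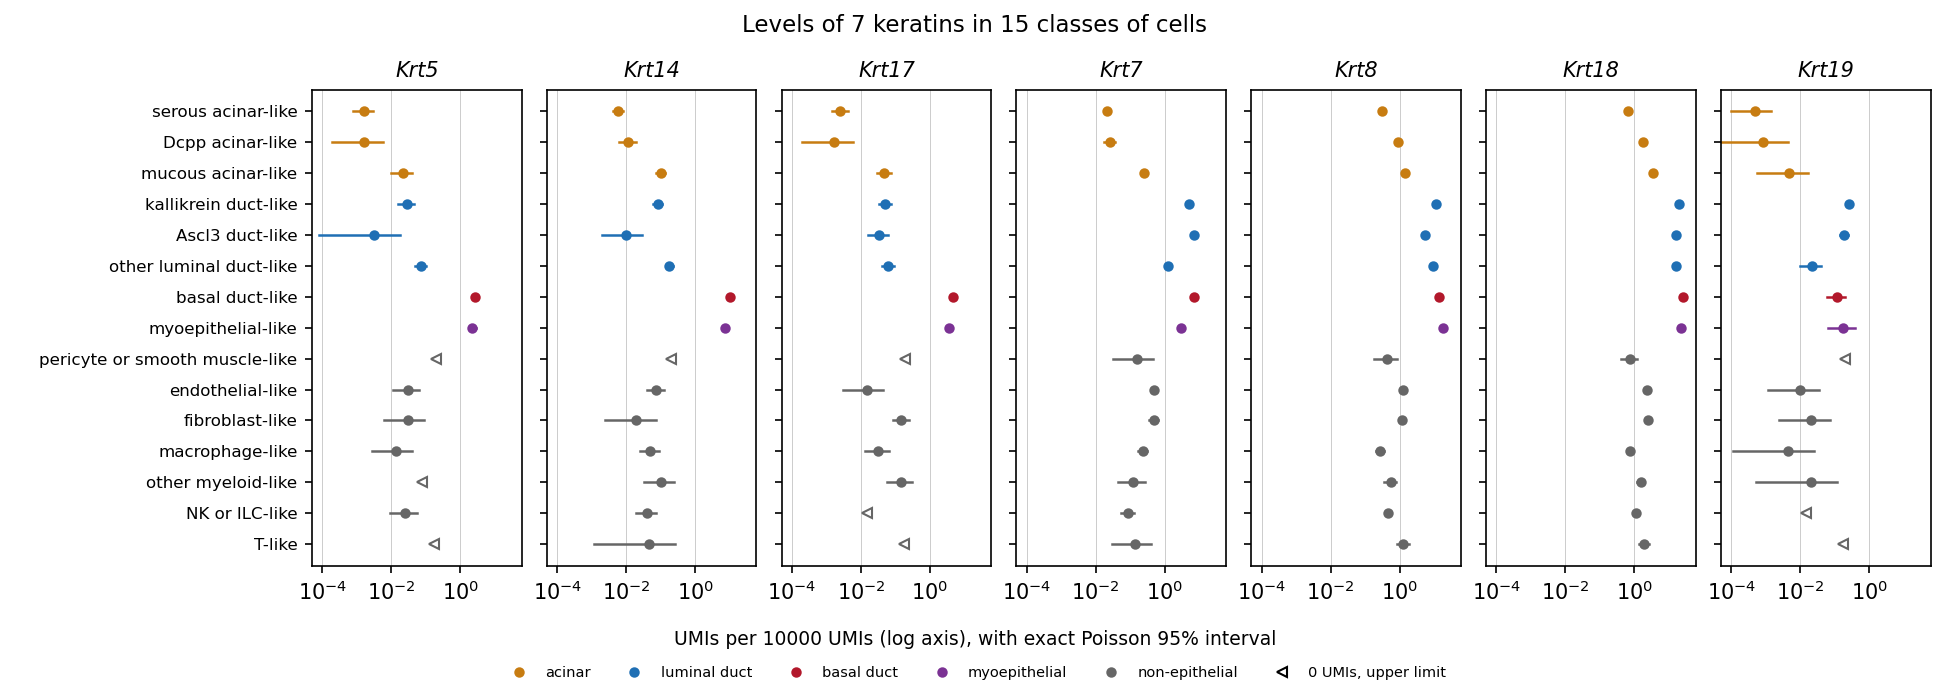
Level of each of 7 keratins in 15 classes as UMIs per 10000 UMIs on a log axis; points are levels, lines are exact 95% Poisson intervals and open triangles are upper limits where the count was 0. *Krt5*, *Krt14* and *Krt17* stood above 2 in basal duct-like and myoepithelial-like cells and below 0.2 in each other class, whereas *Krt8* and *Krt18* were high in every duct, basal and myoepithelial class.

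Shares of cells set the same pair of classes apart, but not in the same order. A *Krt14* UMI was found in 75.4% of basal duct-like cells [68.3 to 81.7], 96.5% of myoepithelial-like cells [87.9 to 99.6] and 1.98% of luminal duct-like cells. Lymphoid cells (NK, ILC and T), which should lack the 7 keratins, gave 0.564% at a median of 1868 UMIs. Thinned to 1000 UMIs per cell, which left out 0 cells, the *Krt14* shares were 54.4%, 63.2%, 0.650% and 0.242%. The *Krt5* share was 62.0% in basal duct-like, 52.6% in myoepithelial-like and 0.322% in lymphoid cells, and 21.1%, 21.1% and 0 of 1241 cells (up to 0.297%) after thinning. The *Krt17* share was 59.1%, 70.2% and 0 of 1241 cells, and 29.2%, 19.3% and 0 of 1241 after thinning. The unthinned *Krt14* share was higher in myoepithelial-like than in basal duct-like cells, against the order of the levels. The intervals of the thinned *Krt14* shares and of the *Krt17* shares overlapped, so no order between these classes could be read from them. Basal and myoepithelial shares stood far above both luminal duct-like and lymphoid cells at either depth. Thinned further to 500 UMIs per cell, the *Krt14* share was 33.3% in basal duct-like and 24.6% in myoepithelial-like cells, the opposite order to that at 1000 UMIs. The *Krt5* share of basal duct-like cells was 7.02% at 500 UMIs.

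The simple keratins *Krt8* and *Krt18*, partners of each other, covered all duct classes. *Krt8* stood at 17.8 [16.4 to 19.3] in myoepithelial-like, 14.1 [13.4 to 14.8] in basal duct-like, 11.4 [11.1 to 11.7] in kallikrein duct-like, 9.43 [9.13 to 9.73] in other luminal duct-like and 5.63 [5.37 to 5.90] in *Ascl3* duct-like cells. None of these neighbours overlapped in counting error. The median cell held 3 *Krt8* UMIs in myoepithelial-like (quartiles 1 and 16), 4 in basal duct-like and 3 in kallikrein duct-like cells. *Krt8* then fell to 1.40 [1.29 to 1.52] in mucous acinar-like cells, which overlapped T-like (1.26, with 22 of 27 UMIs in 1 cell), endothelial-like (1.24) and fibroblast-like (1.21) cells. It was 0.873 in *Dcpp* acinar-like, 0.549 in other myeloid-like, 0.462 in NK or ILC-like, 0.419 in pericyte or smooth muscle-like, 0.318 in serous acinar-like and 0.268 in macrophage-like cells. In this lower part only *Dcpp* acinar-like cells stood clear of both neighbours.

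*Krt18* stood at 24.9 [24 to 25.9] in basal duct-like, 22.3 [20.7 to 23.9] in myoepithelial-like and 20.1 [19.7 to 20.5] in kallikrein duct-like cells, with no overlap between neighbours. These intervals leave out the spread between cells, which was wide in myoepithelial-like cells (median 5 UMIs, quartiles 0 and 22). A *Krt18* UMI was found in 63.2% of them and in 92.9% of kallikrein duct-like cells, against the order of the levels. Other luminal duct-like cells (16.2 [15.8 to 16.6]) and *Ascl3* duct-like cells (15.8 [15.3 to 16.2]) overlapped. Mucous acinar-like cells followed at 3.55 [3.38 to 3.74], clear of both neighbours. Below them came fibroblast-like (2.44), endothelial-like (2.39), T-like (1.91), *Dcpp* acinar-like (1.79), other myeloid-like (1.54), NK or ILC-like (1.10), macrophage-like (0.744), pericyte or smooth muscle-like (0.734) and serous acinar-like (0.673) cells. Each overlapped the next except NK or ILC-like with macrophage-like cells. The leading class depended on the clustering: in 5 alternatives a class named from *Slc13a2*, *Slc9a3* and *Esp4* had the highest *Krt8* and *Krt18*, as given with the unnamed cells below. It also depended on the scale: without the 50 most abundant genes, other luminal duct-like cells led for *Krt8* (31.6) and *Krt18* (54.4).

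The *Krt8* and *Krt18* levels of acinar-like cells depended on the scale. The 50 most abundant genes of the matrix took 92.1% of acinar-like UMIs and 50.3% of luminal duct-like UMIs. Per 10000 UMIs without these genes, *Krt18* was 12.6 in acinar-like and 35.7 in luminal duct-like cells, and *Krt8* was 5.82 and 18.7. A *Krt18* UMI was found in 74.1% of acinar-like and 93.4% of luminal duct-like cells, against 9.35% of lymphoid cells. At 1000 UMIs per cell these shares were 12.3%, 73.0% and 4.92%. The *Krt8* shares were 55.1%, 75.1% and 4.67%, and 5.88%, 49.7% and 2.42% after thinning. Acinar-like cells therefore held *Krt8* and *Krt18* UMIs at shares above lymphoid cells at both depths, and below luminal duct-like cells. Thinning matched all UMIs and not those outside the 50 genes, so it left acinar-like cells fewer UMIs of other genes.

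*Krt7*, a type II simple keratin known from ducts, had another order. It was 7.10 [6.81 to 7.41] in *Ascl3* duct-like cells and 6.93 [6.43 to 7.46] in basal duct-like cells, which overlapped. Kallikrein duct-like cells had 5.12 [4.93 to 5.31], myoepithelial-like cells 3.01 [2.46 to 3.66] and other luminal duct-like cells 1.27 [1.17 to 1.38], none overlapping. Endothelial-like (0.497) and fibroblast-like (0.488) cells overlapped, and fibroblast-like cells did not overlap the next class. The remaining *Krt7* levels were 0.248 in mucous acinar-like, 0.231 in macrophage-like, 0.157 in pericyte or smooth muscle-like, 0.140 in T-like, 0.122 in other myeloid-like, 0.0865 in NK or ILC-like, 0.0260 in *Dcpp* acinar-like and 0.0208 in serous acinar-like cells. Of these neighbours only NK or ILC-like and *Dcpp* acinar-like cells did not overlap.

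Luminal duct classes thus differed in which type II keratin they held. *Krt7* made up 55.8% [54.2 to 57.3] of the *Krt7* and *Krt8* UMIs in *Ascl3* duct-like cells. The same share was 31.1% [30.1 to 32.0] in kallikrein duct-like, 33% [31 to 35] in basal duct-like, 14.5% [12 to 17.3] in myoepithelial-like and 11.9% [10.9 to 12.9] in other luminal duct-like cells. Both genes come from the same cells, so these proportions do not depend on the scale of the levels. They differed with depth in basal duct-like cells, at 50.6% [44.99 to 56.25] under 4000 UMIs and 29.9% [27.8 to 32.1] in deeper cells. In myoepithelial-like cells they were 25.9% [14.96 to 39.65] and 13.5% [11 to 16.4], which overlapped. This depth split was chosen after the values were seen. A *Krt7* UMI was found in 81.9% of *Ascl3* duct-like cells (median 2487.5 UMIs) and 1.61% of lymphoid cells, and in 47.2% and 0.564% after thinning to 1000 UMIs.

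*Krt19*, a type I simple keratin, was scarce, with 265 UMIs in all cells. It was 0.266 [0.224 to 0.314] in kallikrein duct-like, 0.184 [0.139 to 0.238] in *Ascl3* duct-like, 0.177 [0.0650 to 0.386] in myoepithelial-like and 0.117 [0.0606 to 0.205] in basal duct-like cells, each overlapping the next. All 6 myoepithelial-like UMIs came from 1 cell. Other luminal duct-like cells had 0.0215 [0.00985 to 0.0409], below basal duct-like cells without overlap. Other myeloid-like (0.0203), fibroblast-like (0.0199), endothelial-like (0.00983), mucous acinar-like (0.00472), macrophage-like (0.00454), *Dcpp* acinar-like (0.000811) and serous acinar-like (0.000473) cells all overlapped in turn. Pericyte or smooth muscle-like, NK or ILC-like and T-like cells had 0 *Krt19* UMIs (upper bounds 0.193, 0.0152 and 0.172). A *Krt19* UMI was found in 7.20% of kallikrein duct-like cells (median 3364 UMIs) and 0 of 1241 lymphoid cells (up to 0.297%), and in 2.10% and 0 of 1241 after thinning to 1000 UMIs.

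The keratin pairs were then read within single cells. A type I and a type II UMI of the 7 keratins occurred together in 95.9% of basal duct-like, 93.0% of myoepithelial-like, 86.2% of luminal duct-like, 49.1% of acinar-like and 2.50% of lymphoid cells. At 1000 UMIs per cell these shares were 74.3%, 71.9%, 53.0%, 1.54% and 0.645%. Detection of both parts of a filament pair was thus usual in duct and basal cells, and rare in acinar-like cells at that depth. Type I keratins made up 63.0% of the 7 keratins' UMIs in basal duct-like, 59.3% in myoepithelial-like, 56.9% in luminal duct-like and 67.1% in acinar-like cells.

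Basal and simple keratins were found together in the same cells. A basal keratin UMI and a simple keratin UMI shared a cell in 83.6% [77.2 to 88.8] of basal duct-like and 87.7% [76.3 to 94.9] of myoepithelial-like cells. The share was 2.99% in luminal duct-like, 3.37% in acinar-like and 0.403% in lymphoid cells. After thinning to 1000 UMIs the shares were 62.6%, 56.1%, 1.27%, 0.220% and 0 of 1241 cells (up to 0.297%). Basal keratins alone occurred in 1 of 171 basal duct-like and 6 of 57 myoepithelial-like cells, so few cells of either class lacked simple keratin UMIs. *Krt5* and *Krt14* UMIs occurred together in 55.6% of basal duct-like and 50.9% of myoepithelial-like cells. *Krt5* without *Krt14* was seen in 11 and 1 of these cells, and *Krt14* without *Krt5* in 34 and 26.

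**Figure D2:**
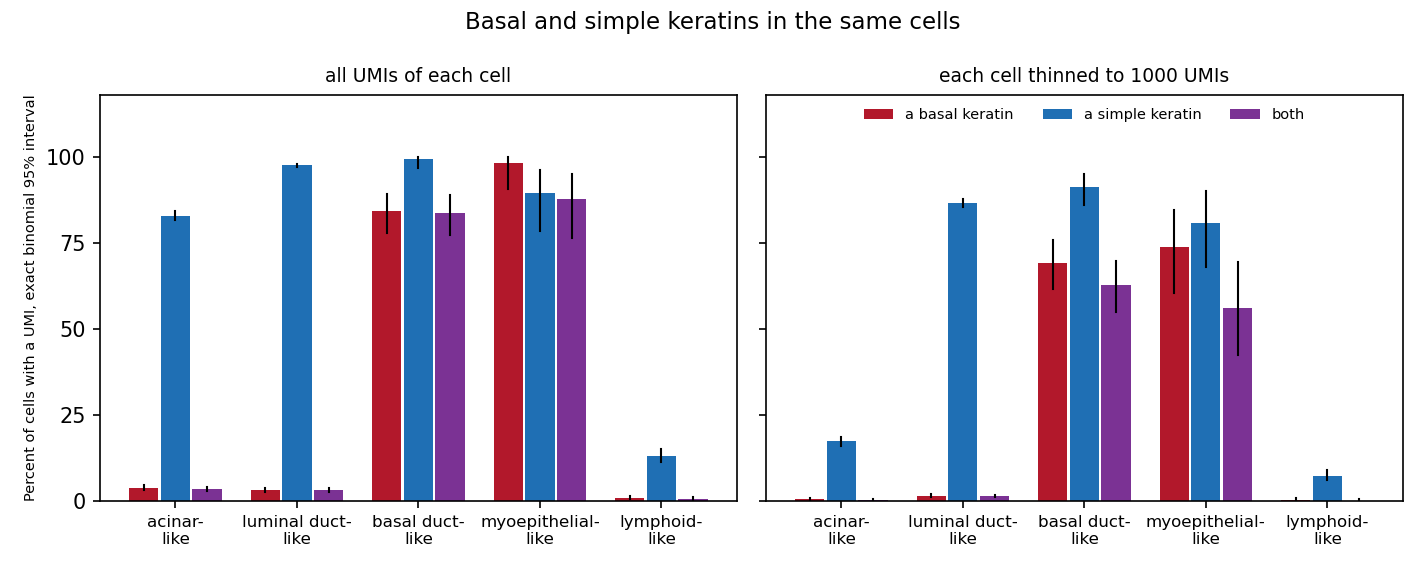
Percent of cells with a UMI of a basal keratin, of a simple keratin and of both, in 5 groups of cells, from all UMIs (left) and from 1000 UMIs per cell (right); lines are exact 95% binomial intervals. Cells with both kinds made up 83.6% of basal duct-like and 87.7% of myoepithelial-like cells, and 2.99% of luminal duct-like cells.

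In myoepithelial-like cells *Krt8* and *Krt18* went with depth and with duct markers, in a split at 4000 UMIs chosen after the values were seen. In the 24 cells under 4000 UMIs (median 1938), *Krt18* was 9.33 [6.91 to 12.3] and *Krt8* 7.62 [5.44 to 10.4], and a *Krt18* UMI was found in 4 of 24 cells. In the 33 deeper cells (median 8048), *Krt18* was 24.7 [22.9 to 26.6] and *Krt8* 19.7 [18.1 to 21.3], with *Krt18* in 32 of 33 cells. *Krt7* was 2.67 [1.46 to 4.47] and 3.08 [2.47 to 3.79], which overlapped. *Krt14* fell on this scale, from 15.4 [12.3 to 19.2] in the shallow cells to 5.94 [5.08 to 6.91] in the deep cells, but rose from 3.38 to 5.15 in UMIs per cell, beside 2.04 and 21.4 for *Krt18*. Thinned to 1000 UMIs, *Krt18* had a UMI in 12.5% of the shallow and 90.9% of the deep cells. The 13 luminal duct markers summed to 12.2 (11 of 13 with a UMI, *Elf3* at 0) in the shallow cells and to 34.2 (13 of 13) in the deep cells, with *Epcam* the most abundant in both, at 4.19 and 9.05. *Acta2* was 83.2 and 19.7.

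A division by *Epcam* was also chosen after the values were seen. It is no independent check of the depth split, since *Epcam* is 1 of the 13 luminal markers and the cells without it were shallower. In 16 myoepithelial-like cells without an *Epcam* UMI (median 1736 UMIs), *Krt18* had 1 UMI, a level of 0.302 [0.00764 to 1.68], *Krt8* was 3.62 [1.87 to 6.33] and *Krt14* 17.2 [13 to 22.3]. In these cells 3 of 13 luminal markers had a UMI, with a summed level of 1.51, *Grhl2* the most abundant, and *Elf3*, *Elf5*, *Tfcp2l1*, *Cldn3*, *Cldn4*, *Cldn7*, *Tspan8* and *Grhl1* among those at 0. In the 41 cells with *Epcam* (median 6796 UMIs), *Krt18* was 24.7 [23 to 26.5], *Krt8* 19.3 [17.8 to 20.9] and *Krt14* 6.35 [5.49 to 7.31], and 13 of 13 luminal markers summed to 33.9. *Krt8* and *Krt18* levels in myoepithelial-like cells thus moved with duct markers. *Krt7* was 2.41 [1.04 to 4.76], from 8 UMIs, without and 3.08 [2.49 to 3.77] with *Epcam*. These intervals overlapped, so no change in its level could be read. In UMIs per cell *Krt7* rose, to 2.29 with *Epcam*, and its share of cells rose from 37.5% to 80.5%. *Krt14* fell per 10000 UMIs and rose from 3.56 to 4.73 in UMIs per cell. *Smgc*, the leading gene of an unnamed cluster, moved too: it was 1.14 and 332 in the shallow and deep cells, and 0.302 and 311 without and with *Epcam*. Whether droplets with 2 cells gave this was not tested.

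Basal duct-like cells kept simple keratins at both depths. In the 75 cells under 4000 UMIs (median 2754), *Krt18* was 17.5 [15.7 to 19.5], *Krt8* 7.89 [6.70 to 9.22] and *Krt7* 8.09 [6.89 to 9.44]. In the 96 deeper cells (median 7450), *Krt18* was 26.7 [25.6 to 27.8], *Krt8* 15.6 [14.7 to 16.4] and *Krt7* 6.65 [6.10 to 7.23]. The 13 luminal markers summed to 38.6 (12 of 13, *Elf5* at 0, *Wfdc2* the most abundant at 10.8) and to 42.5 (13 of 13, *Epcam* the most abundant at 11), and *Acta2*, *Cnn1* and *Myh11* were at 0 in the shallow cells. *Krt14* was 12.1 [10.6 to 13.7] and 10.1 [9.45 to 10.8], with overlapping intervals. *Krt17* fell from 7.13 [6.01 to 8.41] to 4.16 [3.73 to 4.63] without overlap, but rose from 1.89 to 3.57 in UMIs per cell. The 19 basal duct-like cells without *Epcam* (median 2061 UMIs) had *Krt18* at 11.5 [8.51 to 15.1], in 15 of 19 cells, and *Krt8* at 7.11 [4.83 to 10.1], against 25.5 and 14.4 in the 152 cells with it. *Krt7* was 4.59 [2.80 to 7.09] and 7.03 [6.52 to 7.58], which overlapped. The luminal markers summed to 17.2 (10 of 13) and 42.8 (13 of 13), with *Epcam* at 0 in the first group by the split itself. So *Krt8* and *Krt18* moved with the general luminal markers in this split. Summed naming lists of other duct classes were mixed, without and with *Epcam*: kallikrein 43.4 and 59.1, *Slc13a2* 3.21 and 3.85, *Ascl3* 1.84 and 0.980. Serous acinar markers summed to 2834 and 693, and without the 50 most abundant genes *Krt18* was 21.85 and 34.78. In the depth split *Krt8* and *Krt18* both rose while the 13 general luminal markers changed little, from 38.6 to 42.5. Other duct lists rose more in that split, the kallikrein list from 33.1 to 64.5 and the *Slc13a2* list from 1.71 to 4.33. The *Ascl3* list did not, at 1.005 and 1.019. *Smgc* was 2.86 and 44.8 in the shallow and deep basal duct-like cells.

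Classes were next compared over all genes, calling a gene higher at 4-fold or more among genes with at least 20 UMIs in both classes together. Basal duct-like over luminal duct-like cells, 4.18% of 11356 genes were called, and 3 of 7 keratins were: *Krt14* (log2 ratio 6.78 [6.51 to 7.07]), *Krt17* (6.56 [6.18 to 6.97]) and *Krt5* (6.20 [5.74 to 6.68]). Myoepithelial-like over luminal duct-like cells, 5.43% of 11189 genes were called, and again *Krt14* (6.28 [5.96 to 6.61]), *Krt17* (6.17 [5.72 to 6.63]) and *Krt5* (5.92 [5.37 to 6.48]). In the opposite directions 1.75% and 1.28% of genes and 0 of 7 keratins were called. The median log2 ratio of the 7 was 0.68 over 0.39 for all genes in basal duct-like cells, and 0.93 over 0.46 in myoepithelial-like cells. Both medians fell on a simple keratin, since 4 of the 7 stayed under the 4-fold line.

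Summed, *Krt5*, *Krt14* and *Krt17* stood at 17.9 in basal duct-like and 13.2 in myoepithelial-like cells against 0.182 in luminal duct-like cells, log2 ratios of 6.62 [6.42 to 6.83] and 6.18 [5.95 to 6.42]. The 4 simple keratins stood at 46.0, 43.3 and 31.6, log2 ratios of 0.55 [0.50 to 0.59] and 0.46 [0.38 to 0.53]. The simple keratin ratio of basal duct-like cells was 0.00017 without the 50 most abundant genes, and was -0.22 in cells under 4000 UMIs. That of myoepithelial-like cells, a comparison added after the data were seen, was -0.050 and -0.997 in the same settings. So the direction of the basal keratins held in these settings and that of the simple keratins did not. By gene, *Krt7* was higher in basal duct-like cells (0.68 [0.56 to 0.79]) and lower in myoepithelial-like cells (-0.52 [-0.82 to -0.24]) than in luminal duct-like cells. In UMIs per cell *Krt7* was not lower in myoepithelial-like cells (1.79) than in luminal duct-like cells (1.77). *Krt19* did not differ detectably in basal duct-like or myoepithelial-like cells (-0.49 [-1.46 to 0.35] and 0.11 [-1.36 to 1.25]).

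Genes that work with keratins were read from lists chosen with earlier results known. Hemidesmosomes anchor basal filaments to the basement membrane, and 1 of their 6 genes was called in each comparison: *Col17a1*, at log2 ratios of 4.92 [3.95 to 5.97] in basal duct-like and 6.60 [5.64 to 7.65] in myoepithelial-like cells. The list medians were 1.12 and 1.06. *Itgb4*, its integrin subunit, was 1.29 [1.02 to 1.56] and 0.05 [-0.69 to 0.70], and *Dst*, its plakin, was 1.93 [1.66 to 2.19] and 1.47 [0.95 to 1.95]. Of 13 desmosome and plakin genes, which link filaments to neighbouring cells, 12 were tested and 0 called in either comparison, with medians of 0.57 and 0.68. *Dsp*, which binds keratin at the desmosome, was 0.87 [0.67 to 1.06] and 0.99 [0.66 to 1.30]. Filament anchors other than *Col17a1* thus stayed under the 4-fold line that the basal keratins passed. Of these genes, *Col17a1* and *Itgb4* were on the naming lists of both classes. *Itga6*, *Dst*, *Dsc3* and *Pkp1* were on the basal duct list, so these ratios and medians are not independent of the names.

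Of 17 epithelial regulators, 17 were tested and 2 called in basal duct-like cells (*Trp63*, 5.62 [4.72 to 6.62], and *Sox2*, 2.12 [0.49 to 3.53] from 6 UMIs). In myoepithelial-like cells 16 were tested and 3 called (*Trp63*, 7.13 [6.22 to 8.14], *Sox2*, 3.94 [2.42 to 5.28], and *Sox10*, 3.04 [2.24 to 3.77]). *Trp63*, the p63 gene of basal cells, was itself a naming marker of both classes, as was *Col17a1*. Among other intermediate filament genes, the lamin gene *Lmnb1* was called in basal duct-like cells (1 of 4 tested, 2.73 [2.09 to 3.34]), and *Vim* (3.65 [3.10 to 4.18]) and the synemin gene *Synm* (7.29 [5.84 to 9.05]) in myoepithelial-like cells (2 of 5). Among other adhesion genes, P-cadherin *Cdh3* (5.27 [3.99 to 6.74]) was called in basal duct-like cells, and 0 of 6 tested were called in myoepithelial-like cells. Called over luminal duct-like cells in both classes were thus *Krt5*, *Krt14*, *Krt17*, *Trp63*, *Sox2* and *Col17a1* of the genes named here.

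Luminal duct-like over acinar-like cells, 83.2% of 12134 genes were called, and so were 7 of 7 keratins, a share near the background. The 4 simple keratins stood at 31.6 against 1.49, a log2 ratio of 4.40 [4.37 to 4.43], which was 1.78 in UMIs per cell and 1.75 without the 50 most abundant genes. The medians were 4.15 for the 7 keratins and 2.98 for all genes. *Krt7* (7.01 [6.83 to 7.19]) and *Krt19* (7.78 [6.63 to 9.24], from 6 acinar-like UMIs) lay above both medians, *Krt8* was 4.34 and *Krt18* 4.15. Called in the same comparison were 5 of 5 tested hemidesmosome genes, 12 of 12 tested desmosome and plakin genes, 5 of 5 other filament genes, 13 of 16 regulators and 6 of 6 adhesion genes, so this comparison set no list apart.

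Luminal duct-like over non-epithelial cells, 7.62% of 13004 genes were called, and 4 of 7 keratins were: *Krt19* (4.56 [3.41 to 6.02]), *Krt7* (3.99 [3.8 to 4.18]), *Krt8* (3.71 [3.60 to 3.83]) and *Krt18* (3.56 [3.48 to 3.64]). *Krt5* (0.80 [-0.01 to 1.67]), *Krt14* (0.89 [0.38 to 1.43]) and *Krt17* (0.42 [-0.21 to 1.09]) were not. Desmosome and plakin genes were called at 10 of 12 and adhesion genes at 6 of 6, with medians of 3.21 and 3.27, while other filament genes had 0 of 7 and a median of -3.93. Epithelial regulators had 12 of 16 (median 2.96) and hemidesmosome genes 1 of 5 (median 1.24). The median of all genes was 0.09. The simple keratins thus passed the 4-fold line with most desmosome, adhesion and regulator genes, and the basal keratins did not.

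Simple keratin UMIs in non-epithelial classes were uneven. A *Krt18* UMI was found in 35.3% of endothelial-like cells (median 2410 UMIs) and 9.34% of NK or ILC-like cells (median 1875), and in 16.9% and 4.89% after thinning to 1000 UMIs. *Epcam*, which both types should lack, had a UMI in 27.0% and 7.95%, and *Klk1* in 82.2% and 66.7%. UMIs of the 3 secretory genes *Mucl2*, *Pip* and *Scgb2b27*, the measure of free RNA, numbered 944 and 245 per cell. *Krt18* per 1000 of these UMIs was 0.929 and 0.947, and ran from 0.660 in pericyte or smooth muscle-like to 2.29 in other myeloid-like cells over the 7 classes. It was 41.8 in basal duct-like, 25.1 in myoepithelial-like, 20.3 in *Ascl3* duct-like, 19.3 in kallikrein duct-like and 3.62 in other luminal duct-like cells. Acinar-like cells had 6.46 (*Dcpp*), 0.984 (mucous) and 0.0983 (serous). Serous acinar-like cells held 18680 UMIs of the 3 genes per cell, mucous acinar-like cells 4495 and other luminal duct-like cells 2841. The values of these 3 classes therefore cannot be read as ratios to free RNA. A *Krt18* UMI was found in 80.9% of mucous acinar-like cells. The estimate of free RNA gave 0.178 *Krt18* UMIs per lymphoid cell where 0.247 were seen, and 0.0924 *Krt8* UMIs where 0.112 were seen. The same pairs were 0.0330 and 0.0193 for *Krt7*, 0.00736 and 0.00886 for *Krt14*, and 0.00212 and 0.00484 for *Krt5*. For *Krt17* and *Krt19* they were 0.00360 and 0.00112 where 0 UMIs were seen, so the estimate fitted some keratins better than others. Free RNA, droplets with 2 cells and transcripts of the cells themselves cannot be told apart here.

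Of the 42 other numbered keratins, 19 had a UMI, 5525 UMIs in all, and 5 had at least 50. *Krt23* (type I, 3607 UMIs) stood at 2.75 [2.22 to 3.37] in myoepithelial-like, 1.2 [0.999 to 1.43] in basal duct-like and 1.14 [1.08 to 1.2] in luminal duct-like cells. *Krt15* (type I, 288 UMIs), known from basal cells, stood at 2.26 [1.98 to 2.57] in basal duct-like cells, in 49.7% of cells, and at 0.118 [0.0322 to 0.303] in myoepithelial-like cells, in 5.26%. Its level in luminal duct-like cells was 0.00875 from 11 UMIs. *Krt15* was thus higher in basal duct-like than in myoepithelial-like cells without overlap. *Krt80* (type II, 678 UMIs) was highest in *Ascl3* duct-like cells at 0.575, inside the interval of basal duct-like cells (0.469 [0.346 to 0.622]). *Krt10* (type I, 751 UMIs) was highest in myoepithelial-like cells at 0.384 [0.204 to 0.657], an interval that holds the 0.358 of fibroblast-like cells. *Krt83* (type II, 78 UMIs) was highest in the 96 T-like cells at 1.12, followed by NK or ILC-like cells at 0.136, so lymphoid cells did not lack every numbered keratin. The deposited rows of the other 23 had 0 UMIs.

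Unnamed and mixed clusters held further keratin patterns. The 233 unnamed cells led by *Smgc* (median 3328 UMIs) had *Krt18* at 19.0 [18.1 to 19.9] and *Krt8* at 9.91 [9.28 to 10.6], like duct classes. Their *Krt7* was 0.750 [0.585 to 0.948], 7.04% of *Krt7* and *Krt8* UMIs, and *Krt5* and *Krt19* had 0 UMIs (upper bound 0.0395). At a finer resolution, examined after the values were seen, the other luminal duct-like cluster fell mostly into parts of 391, 181 and 84 cells. The 391 cells, in the 399-cell class named from *Slc13a2*, *Slc9a3* and *Esp4*, had *Krt18* at 37.9 [36.8 to 38.9] and *Krt8* at 20.9 [20.1 to 21.6], above each of the 15 classes. The 181 cells had 2.98 and 1.80. Without the 50 most abundant genes the gap was smaller, with *Krt18* and *Krt8* at 24.2 and 14.6 in the 181 cells and at 65.0 and 35.8 in the 391 cells. The 84 cells fell in the cluster named myoepithelial at that resolution (141 cells), and *Acta2* had a UMI in 47 of them. They held basal keratins too, with *Krt14* at 1.13 [0.835 to 1.49] in 32.1% of cells, beside *Krt8* at 15.4 [14.3 to 16.6]. The other luminal duct-like values thus averaged unlike cells.

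Over the 23 clusters, each keratin was set beside 9591 genes by Pearson correlation of log2 levels plus 0.1, a description since clusters share a library, its free RNA and their depth range. *Krt5* was most like *Krt14* (r = 0.989), *Lgals7* (0.982), *Sostdc1* (0.967), *Krt17* (0.955) and *Ucma* (0.951). *Krt14* and *Krt17* were most like these same genes, with *Lgals7* at 0.986 and 0.970. *Krt8* was most like *Krt18* (0.991), *Epcam* (0.970), *Meis1* (0.967), *Kctd1* (0.963) and *Cxcl17* (0.961), and *Krt18* had *Dsp* (0.966) in the place of *Kctd1*. *Krt7* was most like *Tfcp2l1* (0.970), *Irx5* (0.964), *Ppargc1a* (0.963) and *Elovl7* (0.957), and stood at 0.886 with *Krt8* and 0.503 with *Krt5*. *Krt19* was most like *Tns4* (0.942), *Pkp1* (0.940), *Elovl7* (0.933), *Apoc1* (0.932) and *Esrrg* (0.929). The partners *Krt5* with *Krt14* and *Krt8* with *Krt18* were thus each other's nearest genes, and *Krt7* and *Krt19* were nearest to others. Outside the basal duct-like and myoepithelial-like clusters, *Krt5* and *Krt14* reached at most 0.122 and 0.182, near the added 0.1. Their correlation therefore rests mainly on those clusters.

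All 49 numbered keratins had a position in GENCODE M21 (build GRCm38), 25 on chromosome 11 and 24 on chromosome 15, and the identifiers of the 7 matched. On chromosome 11 lay *Krt19* (100140810 to 100148665), *Krt14* (100203162 to 100207548) and *Krt17* (100256217 to 100261029), all on the minus strand. On chromosome 15 lay *Krt7* (101411043 to 101430313, plus strand), *Krt5* (101707070 to 101712898, minus), *Krt8* (101996698 to 102004482, minus) and *Krt18* (102028180 to 102032027, plus). *Krt18* is a type I gene that sits in the type II cluster, 23697 bases from *Krt8* with 0 numbered keratins between, and they are transcribed away from each other. Since the libraries read 3′ ends, the last 300 bases of each keratin transcript were searched: 0 of 211 runs of 90 bases in each of the 7 occurred in a transcript of another gene, over 141767 transcripts, so close relatives did not share these ends.

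**Figure D3:**
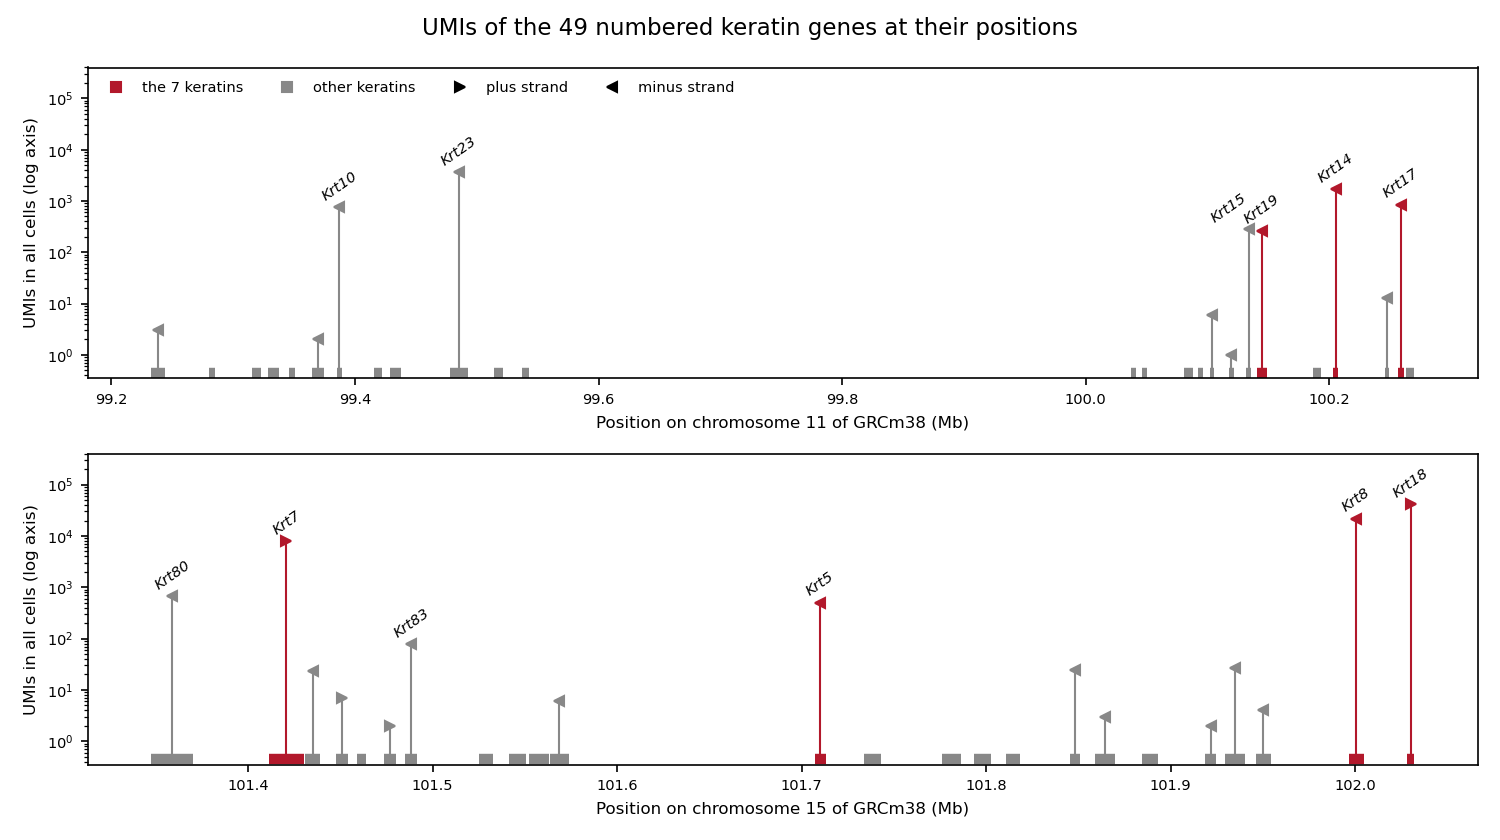
UMIs over all cells (log axis) of the 49 numbered keratins at their positions on chromosomes 11 and 15 of GRCm38 in megabases; red marks the 7 keratins, grey the other 42, triangles point along the strand, and names are given from 50 UMIs up. *Krt8* and *Krt18* lie side by side at the right end of the chromosome 15 cluster with 21855 and 42174 UMIs.

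The sequences before *Krt8* and *Krt18* are shown because these neighbours had the highest correlation over clusters among pairs of the 7 keratins (0.991). RefSeq promoter entries (GRCm38.p6) matched 5 of the 7 keratins, and none was found for *Krt17* and *Krt19*. The 250 bases before each RefSeq start were searched on both strands for 3 motifs. These were the TATA box with the run TATAAA, the site of Sp1 factors with the run GGGCGG, and the site of AP-1 factors with the run TGANTCA. Of 32851 windows of this length, 12.4%, 32.7% and 6.75% held them. *Krt7* held 4 GGGCGG matches, at 141, 128, 56 and 24 bases before its start, and 0 of the others. The *Krt7* and *Krt14* windows lie inside the GENCODE genes, with RefSeq starts 1360 and 1518 bases past the gene starts, and 205 of the 250 *Krt7* bases are exon. *Krt5*, *Krt14*, *Krt8* and *Krt18* held 0 matches of the 3 motifs, so no letters are in capitals below. The RefSeq starts of *Krt8* and *Krt18* lie 140 and 36 bases inside the GENCODE genes, and the part before those genes is printed: 110 bases for *Krt8* on the minus strand (chr15:102004483-102004592) and 214 bases for *Krt18* on the plus strand (chr15:102027966-102028179).
Krt8: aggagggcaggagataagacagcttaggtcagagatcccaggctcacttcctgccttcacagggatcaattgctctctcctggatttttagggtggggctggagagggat
Krt18: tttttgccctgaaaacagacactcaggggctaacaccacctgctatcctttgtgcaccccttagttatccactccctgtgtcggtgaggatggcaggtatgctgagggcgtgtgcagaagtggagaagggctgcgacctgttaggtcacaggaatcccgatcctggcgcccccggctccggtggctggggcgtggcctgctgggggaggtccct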

How the data were processed

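Cells of 4 samples were measured by droplet 3′ sequencing, and the authors deposited 1 matrix of UMI counts, not normalized. The submitters' processing notes name Cell Ranger 6.0.1, Seurat 4.1.1 and the build mm10. The labels name 2 mice, and the methods of the paper name another number. The matrix was taken as 1 sample (1 barcode suffix, 0 barcodes shared), so no test was run and no p-value is given.

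All 15707 barcodes were kept. Seurat 5.3.0 in R 4.3.3 log-normalized the counts (scale factor 10000), chose 2000 variable genes, from which 13 keratins were taken out, and clustered on 20 principal components at resolution 0.5. A cluster was named from the list with the most markers found in at least 25% of its cells at 2-fold over the other cells, with at least 3 markers. The general luminal duct list was passed over where another list met the demands, even with more markers of its own (8 against 6 in the basal duct-like, 9 against 7 in the *Ascl3* duct-like cluster). Demands of 33% of the list and a median of 500 genes were set after the data were seen, and the clusters left unnamed held 5903 cells (37.6%). Scrublet, in scanpy 1.11.5, called 0 cells and so has not worked, and its scores were used only to leave out the highest 10%. The rest ran in Python 3.11.15 (pandas 2.3.3, scipy 1.17.1, numpy 2.4.6, Matrix 1.6.5 in R, figures with matplotlib 3.10.9) and was tested on simulated data.

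The genes named were the 7 keratins, the up to 10 other numbered keratins with the most UMIs and at least 50, up to 4 genes of each partner list with the largest fold in a comparison, and the 5 genes most like each keratin, among genes with at least 200 UMIs. Some genes that these rules take are not reported here. The members and lists were chosen with earlier results of these data known. *Itgb4*, *Dst*, *Dsp* and the genes of the depth (4000 UMIs) and *Epcam* splits were named for their role or after their values were seen. Alternatives changed the clustering, filter, scale, free RNA (528.7 UMIs per droplet, from *Mucl2*, *Pip* and *Scgb2b27* in lymphoid cells) and thinning.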

Additional observations from a re-analysis of the deposited data

How the results depend on the processing

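No paired analysis was possible because the 4 samples share 1 matrix with no map from cells to samples. The values are log2 ratios with these letters: A and B for the basal keratins in basal duct-like and in myoepithelial-like over luminal duct-like cells, C for the simple keratins in luminal duct-like over acinar-like cells, D and E for the simple keratins in basal duct-like and in myoepithelial-like over luminal duct-like cells. As reported, A was 6.62, B 6.18, C 4.40, D 0.55 and E 0.46, and E was added after seeing the data. A letter not listed for a setting stayed within its interval or gave no value, except that C was not run for cells under 4000 UMIs or without *Epcam*.

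At resolution 0.3, A was 6.30, C 4.94 and D 0.22. At resolution 0.8, A was 7.06, B 5.68, C 4.70, D 0.23 and E 0.041. With 10 principal components C was 4.82. With 30 components B was 5.37, C 4.78, D 0.12 and E 0.10. With keratins among the variable genes A was 7.54, C 4.68, D 0.096 and E 0.14. With cells under 200 genes or over 20% mitochondrial UMIs removed, A was 6.21, C 4.64 and D 0.24. Without the highest 10% of Scrublet scores C was 4.45. In UMIs per cell A was 7.17, B 6.72, C 1.78, D 1.10 and E 0.996. Without the 50 most abundant genes A was 6.08, B 5.68, C 1.75, D 0.00017 and E -0.050, a reversal of E. With free RNA taken away A was 6.83, C 4.66 and D 0.50. As a mean over cells B was 6.67, C 4.04, D 0.17 and E -0.22, and as a median over cells C was 4.52, D 0.38 and E -0.28, so E reversed in both. In settings chosen after seeing the data, cells under 4000 UMIs gave A 7.22, B 7.40, D -0.22 and E -0.997, and cells without *Epcam* in the numerator gave B 7.37, D -0.43 and E -2.32. D and E reversed in both. A and B stayed above 5 in each setting that gave a value.

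No value came from 10 components for A, B, D and E, from resolution 0.3 and the removal of cells for B and E, and from the median for A and B. Genes past 4-fold in basal duct-like over luminal duct-like cells numbered 475, against 136 with at least 100 UMIs and 2268 at 2-fold, and in the other direction 199 became 759 at 2-fold. In myoepithelial-like over luminal duct-like cells 608 became 187 with at least 100 UMIs and 2611 at 2-fold, and in the other direction 143 became 628 at 2-fold. In luminal duct-like over non-epithelial cells 991 became 2511 at 2-fold.

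With 57 myoepithelial-like and 171 basal duct-like cells and no replicate, differences between animals could not be seen. The leading class of *Krt8* and *Krt18* changed with the clustering: the *Slc13a2* duct-like class led in 5 alternatives (*Krt8* 18.9 to 21.9, *Krt18* 31.9 to 40.2). With 10 components a class named for *Smgc* led for *Krt5*, *Krt14*, *Krt17*, *Krt8* and *Krt18*. Without the 50 most abundant genes other luminal duct-like cells led for *Krt8* (31.6) and *Krt18* (54.4). At resolution 0.8 the myoepithelial-like class held 141 cells, among them 84 from the other luminal duct-like cluster.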
